A study of Arabidopsis thaliana with 19 samples.

Results

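Among the H3K27ac peaks of Arabidopsis thaliana sperm chromatin, 2852 of 19545 (14.6%) shared no base with an H3K4me3 peak, and these 2852 peaks are described here. They were chosen from the narrow peak lists of the marks on chromosomes 1 to 5, as the H3K27ac peaks that no H3K4me3 peak touched. The other 16693 H3K27ac peaks, which share at least 1 bp with an H3K4me3 peak, serve for comparison. The choice used the presence and position of peaks of both marks, so the fold, q and width of H3K27ac and everything about H3K4me3 are given as a description.

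The study mapped H3K4me3, H3K27ac, H3K27me1, H3K27me3 and the sperm histone variant H3.10 by ChIP-seq of mononucleosomes released with micrococcal nuclease. The nuclei were sorted from ecotype Col-0 (genotype given as wild type) carrying ProHTR10:HTR10-Clover, a reporter of the sperm histone H3.10 driven by its own promoter. H3K27ac and H3K4me3 had 3 immunoprecipitations each and H3K27me1 and H3K27me3 had 2 each, and the labels trace all of them to the 3 chromatin inputs of set A (H3K27me1 and H3K27me3 to 2 of the 3 each), so that the lists of the marks are not independent of each other. Each list pools the replicates of its mark. Values per sample are therefore lacking, the depth is unknown from the lists, and differences are given without replicate error and without a test over samples. H3.10, which came from the inputs of set B, was not analysed here.

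H3K27ac is an acetyl group on lysine 27 of histone H3, placed by histone acetyltransferases and removed by deacetylases, and it marks open chromatin at active promoters and, in animals, at enhancers. H3K4me3 is laid down by Trithorax-type methyltransferases just downstream of the start of transcribed genes, and in plants the marks usually lie together there. In animals, H3K27ac without H3K4me3 is widely used to list candidate enhancers. H3K27ac, H3K27me1 and H3K27me3 sit on the same lysine, so that a single histone H3 tail can carry only one of them at that residue at a time. H3K27me1 is a mark of heterochromatin in Arabidopsis, made by ATXR5 and ATXR6, and H3K27me3 is the product of Polycomb repressive complex 2.

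The labelled cell type was checked against marker genes. All 13 male germline markers had at least 150 bp under H3K27ac and under H3K4me3, against 6 and 8 of 10 markers of the pollen vegetative cell and 1 and 4 of 7 leaf markers. Over all protein-coding genes these shares were 55.9% for H3K27ac and 75.2% for H3K4me3, near those of the vegetative cell markers. H3K27ac peaks without H3K4me3 covered at least 150 bp of 1 of the 13 germline, 2 of the 10 vegetative cell and 1 of the 7 leaf markers, against 5.79% of all protein-coding genes. They were TET12 (AT5G23030), a tetraspanin of sperm, the vegetative cell genes PPME1 (AT1G69940), a pectin methylesterase, and MYB101 (AT2G32460), a pollen tube transcription factor, and in the leaf list RBCS1A (AT1G67090), a small subunit of Rubisco. On TET12 the peak without H3K4me3 covered 311 bp, beside 1031 bp of H3K4me3 elsewhere on the gene. RBCS1A and PPME1 had no base under narrow H3K4me3 peaks, though the authors' broad H3K4me3 list covered 390 bp of RBCS1A. Peaks of TET12, MYB101, PPME1 and RBCS1A had folds of 1.53, 1.59, 1.64 and 1.70, where fold is the authors' ratio of the immunoprecipitation to the expected control at the peak.

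H3K27ac peaks without H3K4me3 were weak and narrow. Their median fold was 1.57 (quartiles 1.49 and 1.67, range 1.32 to 2.26), against 1.78 (quartiles 1.63 and 1.96) for those with H3K4me3. Their median −log10 q, the authors' significance per peak, was 4.48 against 7.82. Only 16 of the 2852 (0.561%) reached a fold of 2, against 3434 of the 16693 (20.6%). Their median width was 402 bp against 546 bp, and together they covered 1310491 bp of the 11974772 bp under all H3K27ac peaks.

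**Figure D1:**
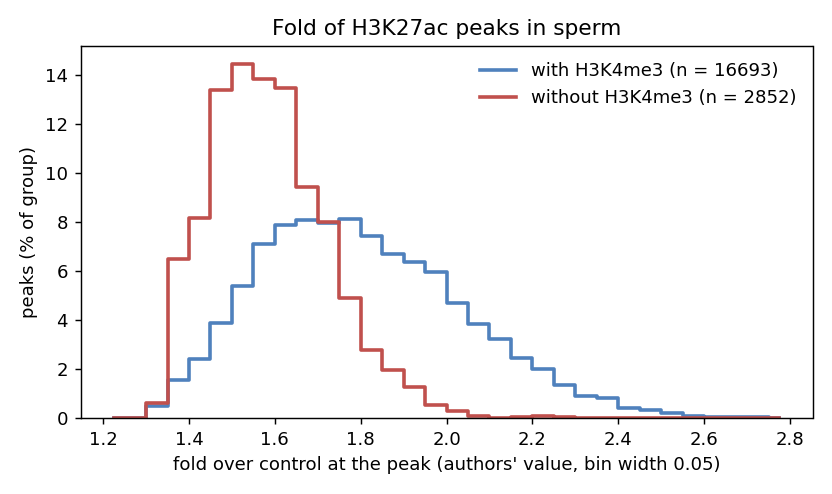
Distribution of the authors' fold (x axis, ratio to the expected control) in the 2852 H3K27ac peaks without H3K4me3 and the 16693 with it, as percent of the peaks of each group (y axis). The peaks without H3K4me3 lie at lower folds, with medians of 1.57 and 1.78, and the distributions overlap over most of their range.

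The share of H3K27ac peaks that lacked H3K4me3 was lower at higher fold. In the quartile of lowest fold over all H3K27ac peaks (1.26 to 1.59) it was 32.2% (1572 of 4888). In the next quartiles it was 18.7% and 6.73%, and in that of highest fold (1.93 to 2.80) it was 0.798% (39 of 4885). The peaks just inside the rule, 34 with an H3K4me3 peak within 100 bp, had a median fold of 1.54, and the 52 just outside, which shared at most 100 bp, also had 1.54. The folds ranged from 1.33 to 1.82 just inside and from 1.33 to 1.90 just outside.

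Most H3K27ac peaks without H3K4me3 had a gap of under 2000 bp to the nearest H3K4me3 peak. The rule used these positions, and gaps from other positions in the genome were not computed for comparison. The median gap to the nearest H3K4me3 peak was 993 bp (quartiles 523 and 1918 bp). An H3K4me3 peak lay within 1000 bp on one side of 1200 peaks (42.1%) and on both sides of 236 (8.27%), and 1416 (49.6%) had none within 1000 bp. The gap was over 5000 and up to 10000 bp for 65 peaks and over 10000 bp for 9. The median fold differed little with the gap, at 1.58 for gaps over 100 and up to 500 bp and 1.57 for gaps over 2000 and up to 5000 bp. The authors' broad H3K4me3 list touched 798 of the 2852 peaks (28.0%), against 69.9% of all H3K27ac peaks. For the same ranges of gap it touched 41.1% and 12.9%, so that a lack of H3K4me3 in the narrow list did not always mean a lack in the broad one.

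Peaks without H3K4me3 lay outside genes more often than those with it in these lists. The summit, the point of highest signal in a peak, was more than 500 bp outside any protein-coding gene in 992 of 2852 peaks (34.8%), against 1299 of 16693 (7.78%). It was inside a protein-coding gene and within 500 bp of a gene end in 31.8% against 66.1%. Gene interiors further from an end held nearly equal shares, 23.1% and 22.4%. From the summit to the closest protein-coding gene end, the median distance was 612 bp (quartiles 334 and 1244 bp), against 354 bp (quartiles 242 and 570 bp). These are differences between pooled lists, without a test over samples. The rule leaves out every peak that touches H3K4me3, a mark of gene starts. Distances to genes, here and below, may therefore be partly set by the rule, which was not tested.

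**Figure D2:**
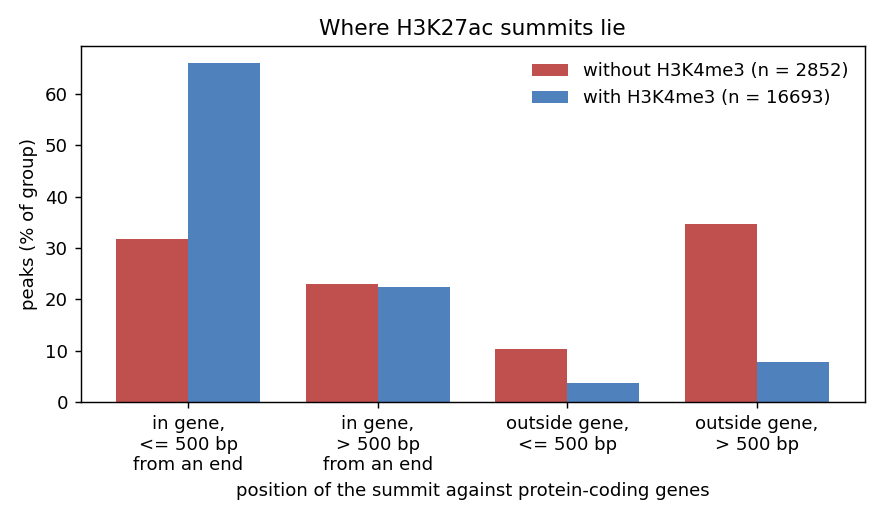
Share of H3K27ac summits (y axis, percent of each group) in 4 positions against protein-coding genes (x axis), for peaks without and with H3K4me3. Summits more than 500 bp outside genes make up 34.8% of the peaks without H3K4me3 and 7.78% of those with it, and gene interiors hold similar shares of both.

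When all annotated genes were counted, RNA genes and pseudogenes included, 840 of the 2852 summits (29.5%) had no gene within 500 bp, against 678 of 16693 (4.06%) of those with H3K4me3 and 7.77% of all H3K27ac peaks. The difference was present in all quartiles of fold, within which fold was not matched. In each quartile of fold the share was higher without H3K4me3, at 29.6% against 5.94% in the lowest quartile and 25.6% (10 of 39 peaks) against 2.23% in the highest. The median distance to a protein-coding gene end was also longer without H3K4me3 in each quartile, at 638 against 441.5 bp in the lowest and 525 against 315 bp in the highest. Width differed as well, and its part in these differences was not tested.

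**Figure D3:**
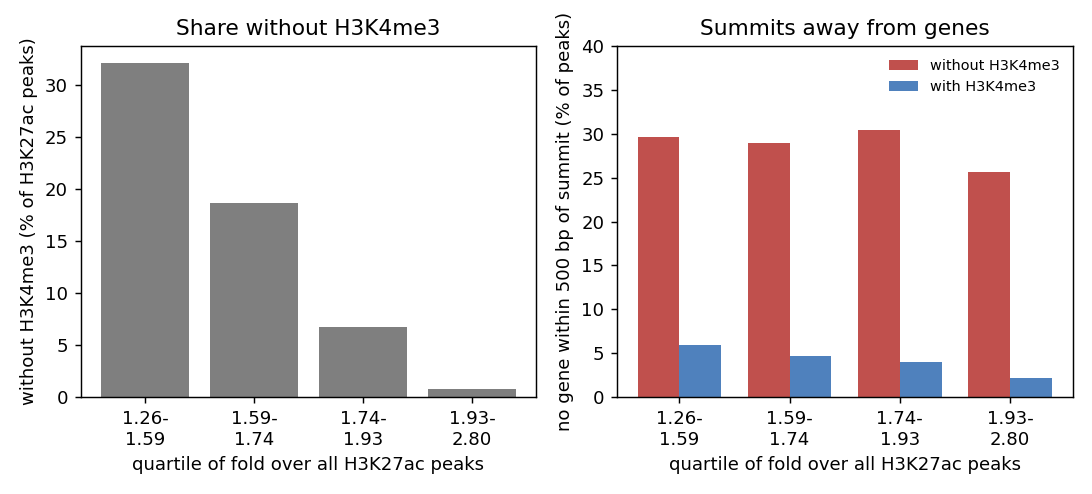
Left, share of all H3K27ac peaks that lack H3K4me3 (y axis, percent) in quartiles of fold (x axis), which runs from 32.2% to 0.798%. Right, share of peaks with no annotated gene within 500 bp of the summit (y axis, percent) in the same quartiles, which lies between 25.6% and 30.4% without H3K4me3 and between 2.23% and 5.94% with it.

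The 840 peaks away from genes lay in intergenic spaces with a median length of 4130 bp, against 3803 bp for the 678 with H3K4me3. Their median distance to the nearest protein-coding gene was 1313 bp (quartiles 829 and 1993 bp), and 209 (24.9%) were over 2000 bp from it. The nearest protein-coding genes were 787 different genes, and 716 of the 840 peaks (85.2%) had a nearest gene with at least 150 bp of narrow H3K4me3, against 75.2% of all protein-coding genes. For H3K27ac on the nearest gene it was 565 peaks (67.3%), against 55.9% of all protein-coding genes. Broad H3K27me3 covered at least 150 bp of the nearest gene for 83 peaks (9.88%), against 4.03% of all protein-coding genes. The shares for the 678 peaks with H3K4me3 were 84.2% for H3K4me3, 66.2% for H3K27ac and 12.98% for H3K27me3.

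The strongest peaks away from genes were on chromosome 2. The first, at 10556462 to 10556921, had a fold of 2.21 and lay 2467 bp from GDU4 (AT2G24762), of the glutamine dumper family of amino acid export regulators. It was 2493 bp from the nearest H3K4me3 peak. The second, at 564223 to 564645, also had a fold of 2.21 and lay 898 bp from the lncRNA gene AT2G04205, 1117 bp from TOM3 (AT2G02180) and 358 bp from H3K4me3, and 318 bp of it lay under narrow H3K27me1. Next came a peak on chromosome 1 at 10141403 to 10141731, with a fold of 2.02 and 2283 bp from TBL38 (AT1G29050), of the trichome birefringence-like family that acetylates cell wall polysaccharides. Also among the 6 of highest fold was a peak on chromosome 1 at 18994026 to 18994355, with a fold of 1.99, which lay 2073 bp from WIP5 (AT1G51220), a zinc finger gene of root patterning, and 5039 bp from H3K4me3. The other 2 of the 6 were nearest to AT2G27950, 1429 bp away, and AT1G26773, 2703 bp away.

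The widest peaks without H3K4me3 were mostly between genes. The widest spanned 1993 bp on chromosome 2, 15715410 to 15717402, with a fold of 1.73, and its summit lay 1603 bp from AT2G37440. Peaks of 1467 bp on chromosome 4, 1507 bp from HIPP25 (AT4G35060), a heavy metal-associated protein gene, and of 1436 bp on chromosome 5, 1056 bp from RS41 (AT5G52040), a splicing factor gene, were also away from genes. The other 2 of the 5 widest lay on AT4G29580 with AT4G29590 (1490 bp) and on RBCS1B (1462 bp), with its summit 463 bp outside that gene. All 5 were touched by the broad H3K4me3 list, in which they shared from 170 to 1660 bp.

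Genes under these peaks formed 2 sets, with and without H3K4me3 elsewhere on the gene. A gene was counted as under the peaks when at least 150 bp of it, or all of a shorter gene, was covered. This held for 1589 of 27444 protein-coding genes (5.79%), compared with 15358 (56.0%) under any H3K27ac peak. H3K4me3 was present elsewhere on 964 of the 1589. The other 625 (2.28% of all protein-coding genes) had no base under an H3K4me3 peak, though 198 of them (31.7%) were touched by the broad H3K4me3 list, against 61.5% of all protein-coding genes and 11.6% of the 5971 genes with neither narrow mark. Unless broad H3K4me3 is named, a gene is said below to have no H3K4me3 where the narrow list has none.

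In the 964 genes with H3K4me3 elsewhere, the H3K27ac peak lay toward the far end of the gene. Counted from the gene end nearer to the centre of its H3K4me3, the H3K4me3 centre was at a median of 18.2% of the gene length and the H3K27ac summit at 82.1% (quartiles 65.8% and 89.6%). By this counting the H3K4me3 centre is never past the middle, and an H3K27ac summit outside the gene was placed at its nearer end. In 841 genes (87.2%) the summit was past the middle, and in 530 (55.0%) it was in the last 20% of the length. A peak that shares no base with H3K4me3 cannot lie on it, so this position is partly set by the rule, and the gene table used has no strand. The genes were long, with a median length of 3079 bp against 2302 bp for 13757 genes with H3K27ac and H3K4me3 and no such separate peak. A longer gene has more room for separate peaks, so the length may also be partly set by the choice of genes.

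**Figure D4:**
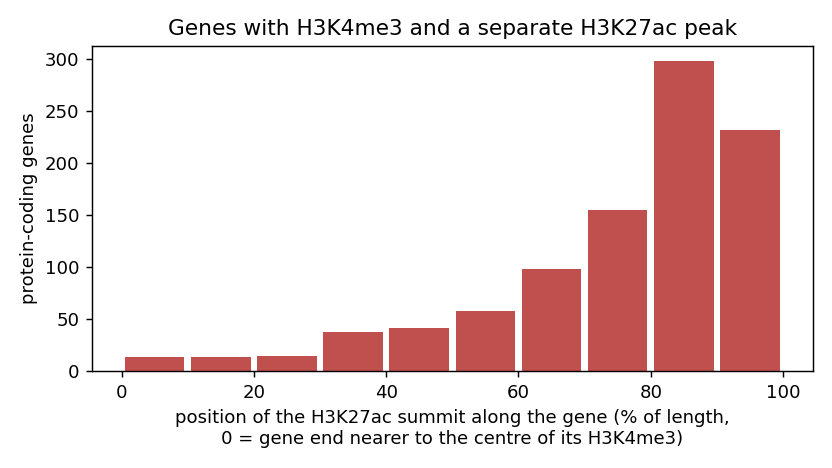
Number of protein-coding genes (y axis) by the position of the H3K27ac summit along the gene (x axis, percent of gene length from the end nearer to its H3K4me3), for 964 genes with H3K4me3 and a separate H3K27ac peak. The last 20% of the length holds 530 genes, and the first 30% holds few. Summits outside the gene are placed at its nearer end.

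The 625 genes with H3K27ac and no H3K4me3 on the gene had a median length of 1681 bp, against 2078 bp for all protein-coding genes. The median was 2302 bp for the 13757 genes with H3K27ac and H3K4me3 and 1294 bp for the 5971 genes with neither mark. Length may thus be partly set by the choice of genes without H3K4me3, which was not tested. Narrow H3K27me1 covered at least 150 bp of 231 of the 625 genes (37.0%). That is between the 18.3% of the 13757 genes with H3K27ac and H3K4me3 and the 43.0% of 5971 genes with neither mark, and the share of all protein-coding genes was 26.9%. Broad H3K27me3 covered 37 (5.92%), against 3.87% and 3.37% in the same sets and 4.03% of all protein-coding genes. In the 964 genes with H3K4me3 elsewhere, the share with broad H3K27me3 was similar, at 6.22% (60 genes). Their share with narrow H3K27me1 was 21.2%.

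By fold, the first of the 625 was AT5G38980, whose peak on chromosome 5 at 15606729 to 15607146 had a fold of 2.26, the highest of all 2852, and a −log10 q of 16.7. TBL42 (AT1G78710), of the trichome birefringence-like family, had 2.15 in a peak at chromosome 1, 29602711 to 29603111, and 1123 bp of the gene lay under such peaks. AT5G38950 followed with 2.02, in a peak wholly under narrow H3K27me1. The H3K4me3 nearest to these 3 peaks was 1597, 2541 and 5342 bp away.

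The others of the 12 genes of highest fold had folds between 1.94 and 2.01. GSTF4 (AT1G02950), a glutathione S-transferase gene, had a fold of 2.01 in a peak that it shares with the overlapping lncRNA gene AT1G02952, so the signal cannot be given to either gene. KDR (AT1G26945), a small regulator of light responses, and JRG21 (AT3G55970), a jasmonate-regulated gene, both had 1.99. SWEET16 (AT3G16690), a sugar transporter of the vacuole, had 1.96 and 1113 bp under such peaks. HDT4 (AT2G27840), a plant-type histone deacetylase gene, had 1.94 and 1156 bp, and RBCS1B (AT5G38430), another Rubisco small subunit, had 1.95 and 882 bp. HDT4, RBCS1B, JRG21, AT5G51890 and TBL42 were touched by broad H3K4me3 peaks, and KDR, GSTF4 and SWEET16 were not. AT1G78170 (1.98), AT5G51890 (1.96) and AT1G41880 (2.01) complete the first 12.

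Other peaks among the 10 of highest fold lay at genes that carried H3K4me3 elsewhere or beside genes. GLTP3 (AT3G21260), of the glycolipid transfer protein family, came between TBL42 and AT4G11560 in fold, in a peak of 883 bp, 495 bp from H3K4me3. AT4G11560 had 2.08. A peak 447 bp outside BTI3 (AT5G41600), a reticulon-like gene, had 2.07, and a peak 335 bp outside ICL (AT3G21720), the isocitrate lyase of the glyoxylate cycle, had 2.02. Both of these were wholly under broad H3K4me3. The RNA gene AT3G00820 on chromosome 3 had 2.21 in a peak of 287 bp, 315 bp from H3K4me3.

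Gene families were compared by the share of their genes under H3K27ac peaks without H3K4me3. Families were the 59 symbol stems with at least 20 protein-coding genes, and their median share was 6.90%, near the 5.79% of all protein-coding genes. They were ranked after the values were seen, so that the families at the top are the extremes of 59 and are described without a test. Serine carboxypeptidase-like genes (SCPL) came first with 10 of 49 (20.4%), amino acid transporters of the UMAMIT family second with 8 of 44 (18.2%) and MYB transcription factors next with 21 of 120 (17.5%). AUX/IAA repressors of auxin signalling (IAA) had 4 of 24 (16.7%) and NAC transcription factors 12 of 79 (15.2%). For any H3K27ac peak the shares of SCPL, UMAMIT, MYB, IAA and NAC genes were 57.1%, 50.0%, 47.5%, 50.0% and 55.7%, against 56.0% of all protein-coding genes. Median gene lengths in these families were 3071, 2526.5, 1790.5, 1717.5 and 1909 bp, against 2078 bp, and the part of length was not tested. The families ERF, GATA, AGP, EXO, SK, SYP and MAP had no such gene.

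Of the 21 MYB genes under these peaks, 15 had no H3K4me3 on the gene. They included MYB10 (fold 1.76), MYB115 (1.74), MYB5 (1.63), a regulator of the seed coat, MYB41 (1.59), a regulator of suberin, MYB90 (1.59), an activator of anthocyanin synthesis, and MYB76 (1.57), of glucosinolate synthesis. MYB85 (1.52) and MYB46 (1.48) act in secondary wall formation, and MYB111 (1.49) in flavonol synthesis. The broad H3K4me3 list covered 1349 bp of MYB5, 2216 bp of MYB46, 442 bp of MYB22 and 312 bp of MYB67, and touched none of the other 11. MYB95 had the highest fold of the family at 1.89, with 653 bp of H3K4me3 elsewhere on the gene. MYB24 (AT5G40350; 1.53) and MYB115 (AT5G40360) have successive identifiers, with H3K4me3 3466 and 1792 bp from their peaks.

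The NAC family had 12 genes under these peaks, of which 8 had no H3K4me3 on the gene. NAC007, NAC076 and NAC101, which belong to the VASCULAR-RELATED NAC-DOMAIN group of xylem vessel regulators, had peak folds of 1.71, 1.42 and 1.67. NAC045 and NAC086, which act in sieve element differentiation, had 1.60 and 1.76. On NAC086 the peak was 1419 bp wide, and the gene had no narrow and 520 bp of broad H3K4me3, while NAC045 had 1561 bp of H3K4me3 elsewhere. NAC074 had the highest fold of the family, 1.99, and its peak lay wholly under broad H3K27me3, with 584 bp of H3K4me3 elsewhere on the gene. NAC1, a transcription factor of lateral root formation, had 1.71 with H3K4me3 2927 bp away.

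AUX/IAA genes under these peaks were IAA16 (fold 1.98, with 1197 bp of H3K4me3 elsewhere on the gene), IAA6 (1.77), IAA14 (1.76), a repressor of lateral root initiation, and IAA33 (1.65). The last 3 had no narrow H3K4me3 on the gene, but 1027 bp of IAA33 lay under broad H3K4me3. Of the SCPL genes, 6 of 10 had none, SCPL12 having the highest fold at 1.73, and of the UMAMIT genes 6 of 8, among them UMAMIT19 (1.80) and UMAMIT14 (1.46), an exporter of amino acids in phloem unloading.

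Classes of RNA gene were counted in the same way. Under H3K27ac peaks without H3K4me3 were 110 of 3480 lncRNA genes (3.16%), 40 of 729 other RNA genes (5.49%), 7 of 326 miRNA genes (2.15%), 3 of 625 tRNA genes (0.480%), 2 of 287 snoRNA genes (0.697%) and none of 82 snRNA genes. Pseudogenes and transposon genes, which the gene table does not separate, had 32 of 4843 (0.661%). As a share of the genes under any H3K27ac peak, these were 14.3% for lncRNA and for miRNA genes, 18.4% for other RNA genes, 18.8% for tRNA genes (3 of 16) and 10.1% for pseudogenes and transposon genes. For protein-coding genes the share was 10.3%, and for snoRNA genes, of which 41.8% lay under H3K27ac, it was 1.67%. Among summits, 83 of the 2852 (2.91%) were within 500 bp of a lncRNA gene and not of a protein-coding, tRNA, miRNA or other RNA gene, against 1.22% with H3K4me3. For such summits near pseudogenes and transposon genes it was 0.771% against 1.38%.

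The 7 miRNA genes had no narrow H3K4me3 on their annotated span, and broad H3K4me3 touched MIR165a and MIR5028. They were MIR5023 (fold 1.78), MIR8184 (1.77), MIR156f (1.72), MIR165a (1.70), MIR172e (1.55), MIR5028 (1.54) and MIR169j (1.50). Of these, miR156 acts on SPL genes of phase change, miR165 on class III HD-ZIP genes of leaf polarity, miR172 on AP2-type genes and miR169 on NF-YA genes. H3K4me3 lay 545 bp from the peak at MIR165a, 1187 bp from that at MIR156f and 1150 bp from that at MIR172e.

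The 3 tRNA genes AT2G33650, AT5G64735 and AT5G51055 had folds of 1.58, 1.57 and 1.36, and the snoRNA genes AT5G06835 and SNOR77 had 1.52 and 1.45. Of the lncRNA genes, AT3G04645 lay in a peak of 1181 bp with a fold of 1.85, 4383 bp from H3K4me3, and AT4G06280 in one of 794 bp with 1.83, 2116 bp from it. AT1G09457 shared its peak with MYB95 (fold 1.89), so its signal cannot be told apart from that gene's. AT1G69587 (1.87) had 1017 bp of H3K4me3 elsewhere on its span.

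The other H3K27 marks were then set against the peaks, since the marks exclude each other on a single histone tail. Most of the 2852 peaks, 2411 (84.5%), were touched by neither H3K27me1 nor H3K27me3 in any list, against 82.2% of those with H3K4me3. Narrow H3K27me1 touched 343 (12.03%), near the 13.2% of all H3K27ac peaks, and broad H3K27me1 touched 155 (5.43%), near 5.08%. Within quartiles of fold the shares with narrow H3K27me1 were further apart. From the lowest to the highest quartile of fold they were 14.1%, 9.98%, 8.21% and 10.3% without H3K4me3, against 20.9%, 18.5%, 11.9% and 5.41% with it. They were thus lower without H3K4me3 in the first 3 quartiles and higher in the last, which holds 39 such peaks. Fold was not matched within a quartile, and only 16 peaks without H3K4me3 reached a fold of 2, against 3434 with it. Broad H3K27me3 touched 52 (1.82%), against 3.17% of all H3K27ac peaks and 3.40% of those with H3K4me3. Narrow H3K27me3 touched 9 (0.316%), against 0.977% and 1.09%. The peaks without H3K4me3 are narrower, and what width adds to these shares was not tested.

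The share with H3K27me1 depended on the position. Of the 1567 peaks with summits inside protein-coding genes it was 17.0% near the ends and 21.4% in interiors, where the peaks with H3K4me3 had 11.1% and 21.4%. Of peaks with summits more than 500 bp outside genes it was 3.23%, against 9.70% with H3K4me3. For the 840 peaks with no gene of any class within 500 bp it was 1.79% (15 peaks), against 3.097%. Broad H3K27me3 touched 7 of these 840 (0.833%). By gap to H3K4me3, the share with narrow H3K27me1 was 8.80% over 100 and up to 500 bp, 18.2% over 2000 and up to 5000 bp, 24.6% (16 of 65) up to 10000 bp and 11.1% (1 of 9) beyond.

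**Figure D5:**
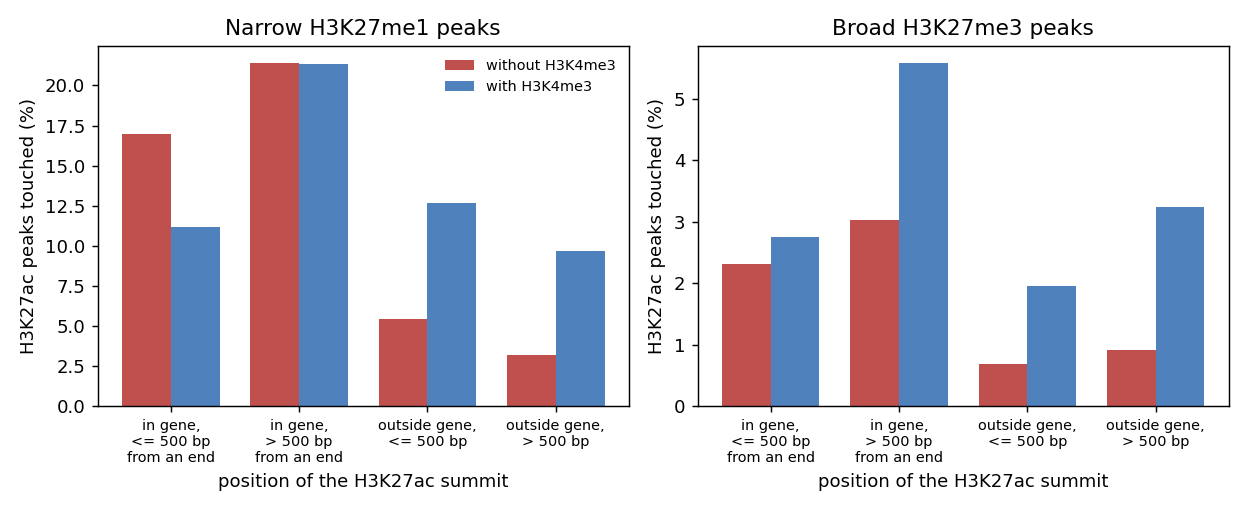
Share of H3K27ac peaks touched by narrow H3K27me1 peaks (left) and broad H3K27me3 peaks (right), in percent (y axes), by position of the H3K27ac summit (x axes), without and with H3K4me3. H3K27me1 touches 21.4% of peaks with summits in gene interiors in both groups. It touches 3.23% and 9.70% of peaks with summits more than 500 bp outside genes.

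Where narrow H3K27me1 met these peaks, it often covered most of the H3K27ac peak and less often all of it. The median share of the peak under narrow H3K27me1 was 89.8%, and 128 of the 343 peaks (37.3%) lay wholly inside it, against 26.9% for peaks with H3K4me3. The median length shared was shorter, at 326 bp against 400 bp. Peaks without H3K4me3 are narrower, and the part of width in these shares was not tested. The median H3K27ac fold was 1.55 with narrow H3K27me1 and 1.58 without it. Of the 343, 295 (86.0%) had their summit in a protein-coding gene and 3 were in pericentromeres. By fold the first of them at genes, after AT5G38950 and GSTF4, were AT1G78170 (1.98), AT5G46871 (1.91) and SULTR2;1 (AT5G10180; 1.91), a sulfate transporter gene. The mark covered all 718 bp of the peak at AT1G78170, 307 of 421 bp at SULTR2;1, 131 of 316 bp at GSTF4 and 32 of 584 bp at AT5G46871.

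All 9 peaks with narrow H3K27me3 are given here, and of the 52 with broad H3K27me3 those of highest fold. Narrow H3K27me3 lay on AT2G41130 (H3K27ac fold 1.93), RL3 (AT4G36570; 1.88), a small MYB-like gene, MEE57 (AT4G13610; 1.65), JAG (AT1G68480; 1.62), a zinc finger gene of lateral organ growth, TCP1 (AT1G67260; 1.59), DAG1 (AT3G61850; 1.57), a Dof factor of seed germination, CYP96A15 (AT1G57750; 1.55), an enzyme of wax synthesis, and AT1G61660 (1.50). The ninth peak, on chromosome 5 at 3692554 to 3692945 (fold 1.56), was 3034 bp from EMF1 (AT5G11530), a Polycomb partner gene. On DAG1 all 343 bp of the H3K27ac peak also lay under narrow H3K27me1, and on TCP1 all 548 bp did. Broad but not narrow H3K27me3 covered the peaks at NAC074 (1.99) and NTT (AT3G57670; 1.81), a zinc finger gene of the transmitting tract, and 65 bp of that at IGMT2 (AT1G21120; 1.80), a methyltransferase gene of indole glucosinolates, whose peak lay wholly under narrow H3K27me1. A peak on chromosome 5 at 9368071 to 9368838 (1.78), 1323 bp from AT5G26620, shared 538 bp with broad H3K27me3 and 700 bp with narrow H3K27me1. Broad H3K4me3 covered 314 of 330 bp of the peak at NAC074, all 349 bp of that at NTT and all 628 bp of that at MEE57. In all, 21 of the 52 lay wholly under broad H3K27me3, and 21 of the 2852 touched both H3K27me1 and H3K27me3. The lists are of pooled sorted nuclei, so whether marks that overlap were on the same chromatin fibre cannot be told apart from a mixture of nuclei.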

How the data were processed

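Narrow and broad peak lists of H3K27ac, H3K4me3, H3K27me1 and H3K27me3 were used. The broad H3K27ac list touched only 8 of the 2852 peaks (0.281%) and 63 of all 19545 narrow H3K27ac peaks (0.322%). Per the submitters' processing notes, the build was TAIR10 and the tools included MACS2 2.1.0 for peaks (no settings stated), Bowtie2 2.1.0 as an aligner and Trim Galore 0.4.1. Each deposited list gives, per peak, the authors' fold (a ratio) and the authors' −log10 q, and in the narrow lists a summit offset. The fold and q of the broad lists were not used. Starts were recounted from 1, and all peak coordinates are on TAIR10.

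Genes came from the RefSeq table of TAIR10.1, whose coordinates are not printed. Trial shifts of the H3K4me3 summits, every 250 bp as far as 5000 bp either way, put the most summits within 500 bp of gene ends at 0 bp in 59 of 59 segments of 2 Mb. Overlap meant at least 1 bp for peaks. Pericentromeres were the runs of 500 kb windows with under 50% of the chromosome's median gene count around the sparsest window, single denser windows bridged. Overlap and distance code was tested on simulated peaks. No statistical test was made, since peaks are not replicates. Named were the 10 peaks of highest fold, the 5 widest, the 6 highest away from genes, with H3K27me1 and with H3K27me3, the 12 protein-coding genes of highest fold without H3K4me3, the 5 highest genes of each RNA class, and marker genes. Gene families, the other miRNA genes, the other peaks with narrow H3K27me3 and RBCS genes were chosen after their values were seen. The peaks and lists were chosen with earlier results of these data known. Alternatives were a 500 bp margin or 150 bp of sharing for H3K4me3, the broad H3K4me3 list, −log10 q of at least 5, other lists of the H3K27 marks and peak middles. Python 3.11.15, numpy 2.4.6, pandas 2.3.3, scipy 1.17.1 and matplotlib 3.10.9 were used.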

Additional observations from a re-analysis of the deposited data

How the results depend on the processing

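No paired analysis was possible because each list pools the replicates of its mark, and for the same reason no replicate could be left out. Values were compared with the 95% binomial interval of the reported share or median, which covers counting error only. With H3K27ac peaks of −log10 q of at least 5, 1128 peaks lacked H3K4me3, with a median fold of 1.70, a median distance of 564.5 bp to a gene end (338 bp with H3K4me3) and 8.95% touching narrow H3K27me1 (10.9% with H3K4me3). With a margin of 500 bp to H3K4me3, the median distance was 668 bp and 32.8% had no gene within 500 bp. Without peaks that touch broad H3K4me3, the median fold was 1.56, the median distance 655.5 bp and the share with no gene 31.4%. The share with H3K27me1 was 10.6% at 150 bp of sharing and 5.43% in the broad list, where it was 5.01% with H3K4me3, so that its order against peaks with H3K4me3 depended on the list. The share with H3K27me3 was 0.316% in the narrow list, against 1.09% with H3K4me3. The cause of these shifts was not tested. The other 28 of 40 values stayed within the interval, or for numbers of peaks within 1.5 times, and the share with no gene within 500 bp was between 28.9% and 32.8% under all 5 settings tried for it, against 3.602% to 4.99% for the remaining peaks. Motif counts were not run, and gene lists other than the markers were not used here.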

Other observations

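Pericentromeres held 23 of the 2852 H3K27ac peaks without H3K4me3 (0.806%), against 1.49% of all H3K27ac peaks and 1.61% of those with H3K4me3. The strongest was on AT1G41880 on chromosome 1, 15652232 to 15652526, with a fold of 2.01. It was 46899 bp from the nearest H3K4me3 peak, the longest gap of all 2852. Next came AT1G44895 (fold 1.92), and BR6OX2 (AT3G30180; 1.83), a brassinosteroid synthesis gene, whose whole peak of 281 bp lay under broad H3K27me1.

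The 4 RBCS genes, which encode the small subunit of Rubisco and were looked at together after RBCS1A and RBCS1B had been seen, differed in their marks. RBCS1A had 770 bp under H3K27ac peaks without H3K4me3 and RBCS1B 882 bp, and neither had a base under narrow H3K4me3. RBCS2B and RBCS3B, which have neighbouring identifiers to RBCS1B, had 1014 and 1087 bp under H3K4me3 and no base under such H3K27ac peaks. They also carried H3K27ac, with 555 and 1058 bp under H3K27ac peaks that touch H3K4me3. Broad H3K4me3 covered 390 bp of RBCS1A, 1976 bp of RBCS1B and the whole of RBCS2B (1165 bp) and RBCS3B (1655 bp). Narrow H3K27me1 covered 537 bp of RBCS1B and no base of the other 3. The genes are close in sequence, and how reads were divided between copies is not given in the sources used here, so these values are uncertain.

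Among the nearest protein-coding genes of the 840 peaks away from genes, 787 different genes or 2.87% of all, the shares of the same 59 symbol stems were ranked after the values were seen. CIPK kinase genes, which act with calcium sensors, had 5 of 21 (23.8%). Genes with the symbol stem HB, which takes in both HB-2 and HB2, had 7 of 37 (18.9%). PUB genes, which encode U-box ubiquitin ligases, had 4 of 22 (18.2%). KCS genes (14.3%), CLE genes (13.3%), EXPA, TRM (12.1%) and ERF genes followed in that order. Of the families that came first by peaks on the gene, MYB had 13 of 120 (10.8%) and SCPL had 0 of 49. The part of intergenic length in these counts was not tested. TH7 (AT1G59730), AT1G63100 and CYCD1;1 (AT1G70210), a D-type cyclin gene, were each nearest to 3 such peaks.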
